A study of Mus musculus with 2 samples.

Results

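The X-linked microRNA cluster that begins with Mir322 and Mir503 and ends with the miR-450 hairpins was examined in the midbrain of newborn mice. Its 7 hairpins are Mir322, Mir503, Mir351, Mir542, Mir450a-2, Mir450a-1 and Mir450b. They were taken by name from the 1894 microRNA genes of the count tables that have a symbol. Their counts were not used as a filter, but the choice was made with earlier results of these data known. Both libraries belong to 1 group of B6NCrl mice at postnatal day 0, with no allele or treatment named, and each was made from total RNA of 1 midbrain, that of pup 1 and that of pup 3. The labels size the RNA at under 30 bases, give the same donor identifier for both pups and state that sex was not collected. There is no second tissue, age or treatment. The data therefore show how much each hairpin of the cluster contributed to the counts and how far the pups differed. Counts of different hairpins were not calibrated to amounts of RNA.

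MicroRNAs are cut from hairpin precursors into mature strands, named 5p and 3p after the arm they come from, and the bases near the 5′ end of the strand, the seed, pair with target messenger RNAs. Hairpins of a cluster can be cut from a single transcript, yet each mature strand is processed and degraded on its own. The mouse Mir322 corresponds to human MIR424. miR-322 and miR-503 are known to repress cyclins and other drivers of the cell cycle and to accumulate as muscle and other cells leave it, and miR-542-3p is known as a repressor of the survivin gene Birc5.

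The mature strands are shown first because their seeds set which other microRNAs the members resemble. They are RNA sequences from RefSeq on GRCm38.p6, all on the minus strand of chromosome X, and a mature sequence was found there for 7 of 7 members. Capitals mark the seed, bases 2 to 8 counted from the 5′ end.
miR-322-5p: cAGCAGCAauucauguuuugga
miR-503-5p: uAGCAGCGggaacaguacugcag
miR-351-5p: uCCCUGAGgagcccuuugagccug
miR-542-3p: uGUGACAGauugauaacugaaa
miR-450a-5p: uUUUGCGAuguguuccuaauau
miR-450b-5p: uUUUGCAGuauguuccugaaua
miR-450a-1-3p: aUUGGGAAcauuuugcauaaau
miR-450a-2-3p: aUUGGGGAugcuuugcauucau
miR-450b-3p: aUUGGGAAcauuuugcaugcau

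By seed the cluster falls into several groups. miR-322-5p has the seed of miR-15, miR-16 and miR-195, repressors of the cell cycle, and 9 other mature mouse microRNAs of the table carry it. miR-503-5p differs from miR-322-5p inside the seed only at its last base, A8G, and no other mature microRNA in the table has its seed. miR-351-5p has the seed of miR-125, a family abundant in brain, and differs from miR-125b-5p at 12 of the 22 compared bases, all of them after the seed. The 3p strands of Mir450a-1 and Mir450b share a seed and differ at A19G and A20C alone. That of Mir450a-2 departs from the Mir450a-1 strand at 6 bases, of which A7G lies in the seed.

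The deposited counts give 1 number per hairpin, so strands of a hairpin were not told apart. A read that mapped to several places was counted in no gene. This touches Mir450a-1 and Mir450a-2, whose hairpins are printed here with the run they have in common in capitals.
Mir450a-2: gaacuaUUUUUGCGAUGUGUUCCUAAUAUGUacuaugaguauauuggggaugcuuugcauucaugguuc
Mir450a-1: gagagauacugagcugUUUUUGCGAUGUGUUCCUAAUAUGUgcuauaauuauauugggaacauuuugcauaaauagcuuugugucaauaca
The run is 25 bases long and holds the whole of miR-450a-5p, so a read of that strand has 2 places to map to in this cluster. The remaining 12 of the 13 mature strands each had an exact copy in only 1 annotated microRNA hairpin. The longest run shared with another annotated microRNA hairpin was 19 bases for Mir450b, and 11 to 13 bases for Mir322, Mir503, Mir351 and Mir542.

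On GRCm38 the cluster spans 6353 bases of chromosome X, on the minus strand, and no other gene of GENCODE M21 overlaps any of its hairpins. Mir322 (ENSMUSG00000065418.1) lies from 53054255 to 53054349, Mir503 (ENSMUSG00000076122.1) from 53053984 to 53054054, and Mir351 (ENSMUSG00000065503.1) from 53053255 to 53053353. Mir542 (ENSMUSG00000076140.1) lies from 53049403 to 53049487, past the noncoding gene Gm28730 and 3767 bases beyond Mir351. Mir450a-2 (ENSMUSG00000076399.1) lies from 53048299 to 53048367, Mir450a-1 (ENSMUSG00000065486.1) from 53048154 to 53048244 and Mir450b (ENSMUSG00000076050.1) from 53047997 to 53048078, with 54 and 75 bases between them. The noncoding gene C430049B03Rik ends 696 bases before Mir322 on the same strand. GC content was 50.5% to 54.9% in Mir322, Mir503, Mir351 and Mir542, but 30.5% to 36.2% in the miR-450 hairpins, against a median of 51.0% over the 1894 counted hairpins with a sequence.

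The library of pup 1 had 2337113 reads counted on the own strand of a gene and that of pup 3 had 3195277, or 42.8% and 43.3% of the reads in the files. CPM here means own-strand counts per 1000000 such counts of the library, and means carry the SD over n = 2 pups. Detection required 10 or more counts in both libraries. It was met by 5 of 7 members and by 359 genes in all.

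Mir322 dominated the counts of the cluster. It had 14371 counts in pup 1 and 22713 in pup 3, or 6149 and 7108 CPM (6629 ± 678), which placed it at rank 33 of all genes. Mir351 followed at 844 CPM in pup 1 and 610 CPM, or 1948 counts, in pup 3 (727 ± 166), at rank 113. The ranges of these hairpins over the pups lay far apart. All ranks given here are by counted reads. Several-place reads, 38.7% and 39.8% of those in the files, are in no gene, so microRNAs with several loci can rank too low.

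Below them, Mir542 had 416 and 638 counts, or 178 and 199.7 CPM (189 ± 15.3). Mir503, which lies 200 bases from Mir322, had 220 and 372 counts, or 94.1 and 116 CPM (105 ± 15.8). Mir450b had 100 and 107 counts, or 42.8 and 33.5 CPM (38.1 ± 6.58). These 3 hairpins were detected in both pups at ranks 191, 221 and 269.

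Mir450a-2 had 9 and 12 counts (3.80 ± 0.0674 CPM) and Mir450a-1 had 7 and 10 counts (3.06 ± 0.0951 CPM). Both stayed under the count minimum in pup 1, although they were above the 3 counts that a count of 0 allows, 1.28 CPM in pup 1 and 0.939 CPM in pup 3. Reads of their common 5p strand are not in these numbers, so the counts are lower limits for the 2 hairpins, and what they miss is unknown. No member had a count on the opposite strand in either pup.

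**Figure D1:**
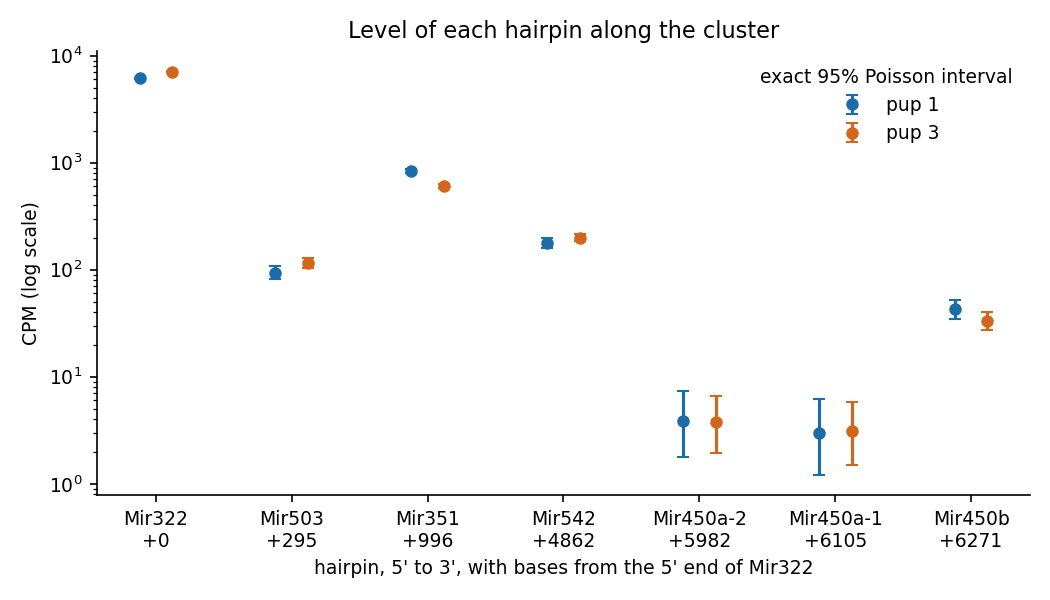
Level of each hairpin in CPM on a log axis, in order from 5′ to 3′ with the distance in bases from the 5′ end of Mir322; points are the pups and bars are exact 95% Poisson intervals of the counts. Mir322 stands at 6149 and 7108 CPM, Mir503 beside it near 100 CPM, and Mir450a-2 and Mir450a-1 under 4 CPM.

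Position along the cluster therefore did not order the levels. Going from 5′ to 3′ the mean level was 6629, 105, 727, 189, 3.80, 3.06 and 38.1 CPM, a drop, a rise, falls to the miR-450a hairpins and a rise at Mir450b. The order of the 5 detected members, Mir322, Mir351, Mir542, Mir503 and Mir450b, was the same in each pup, and also per 100 bases of hairpin. The counts of Mir450a-2 and Mir450a-1 lay below these, but they miss reads of the common strand, so the place of those hairpins is not known. On that per-length scale the levels were 6978 CPM per 100 bases for Mir322, 734 for Mir351, 222.2 for Mir542, 148 for Mir503 and 46.5 for Mir450b.

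Ratios within a library do not depend on its total and show the same steps. Mir322 had 65.3 times the counts of Mir503 in pup 1 (exact 95% interval 57.2 to 75.0) and 61.1 times in pup 3 (55.1 to 67.8). Against Mir542 the ratio was 34.5 (31.3 to 38.2) and 35.6 (32.9 to 38.6). These ratios of Mir322 to Mir503 and to Mir542 had overlapping intervals in the pups.

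The nearest pair among the detected hairpins was Mir542 and Mir503, with a count ratio of 1.89 in pup 1 (1.60 to 2.24) and 1.72 in pup 3 (1.51 to 1.95). Mir503 had 2.20 times the counts of Mir450b in pup 1 (1.73 to 2.82) and 3.48 times in pup 3 (2.80 to 4.35). Neither pair of neighbours overlapped in CPM between the pups. Mir450a-2 and Mir450a-1 could not be ranked at this depth, since their count ratio of 1.29 in pup 1 had an interval of 0.426 to 4.06 and that of 1.20 in pup 3 one of 0.475 to 3.10. These intervals, as all intervals given here, cover counting error only.

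Summed over its 7 hairpins, the cluster held 17096 counts in pup 1 and 25800 in pup 3. That is 0.732% of own-strand counts in pup 1 (exact Clopper-Pearson 95% interval 0.721 to 0.743) and 0.807% in pup 3 (0.798 to 0.817). Mir322 made up 84.1% of the cluster in pup 1 (83.5 to 84.6) and 88.0% in pup 3 (87.6 to 88.4). Mir351 made up 11.5% (11.1 to 12.0) and 7.55% (7.23 to 7.88), the largest shifts of any member between the pups. The part of Mir542 was 2.43% and 2.47%, that of Mir503 1.29% and 1.44%, and that of Mir450b 0.585% and 0.415%.

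The pups were then compared gene by gene. Ratios are pup 3 over pup 1 with TMM-scaled totals, and the counts were set against the rest of the library in a two-sided Fisher's exact test, for all 286 genes whose counts averaged 50 or more. The test used unscaled totals, with which the ratios of the tested members are slightly higher than with TMM. It compares these 2 libraries and has no replicate check. Of the 5 tested members none passed an adjusted p of 0.05 with at least a 2-fold ratio, where 1.75% of all tested genes did. At any fold 3 of 5 passed, where 57.3% of all tested genes did, so this count is near the background. The median log2 ratio was 0.12 over the tested members and 0.02 over all tested genes.

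Mir351 was lower in pup 3, with a log2 ratio of -0.52 (0.655 to 0.743-fold, Fisher's exact test with Benjamini-Hochberg adjusted p = 1.56e-23). Only 16 of the 286 tested genes, or 5.59%, had a lower ratio. Mir322 was higher in pup 3 with a log2 ratio of 0.16 (1.09 to 1.14-fold, adjusted p = 7.56e-42 by Fisher's exact test). This size is near 0.155, the median absolute log2 ratio over all tested genes. Mir503 was also higher, with a log2 ratio of 0.26 (1.01 to 1.42-fold). Its adjusted p = 0.0235 by Fisher's exact test belongs to the unscaled totals, with which the log2 ratio was 0.31. The 2 members higher in pup 3 compare with 33.9% of all tested genes in that direction, and the 1 higher in pup 1 with 23.4%. Mir542, at a log2 ratio of 0.12, and Mir450b, at -0.40, did not pass (adjusted p = 0.113 and 0.125 by Fisher's exact test).

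Mir351 thus parted from 3 of the other detected members. Mir322 had 7.28 times the counts of Mir351 in pup 1 (6.95 to 7.64) and 11.7 times in pup 3 (11.1 to 12.2). Mir351 had 8.97 times the counts of Mir503 in pup 1 (7.80 to 10.4) and 5.24 times in pup 3 (4.68 to 5.87), and 4.74 times those of Mir542 in pup 1 (4.26 to 5.28) against 3.05 times in pup 3 (2.79 to 3.34). In these 3 ratios the intervals of the pups did not overlap, while those among Mir322, Mir503 and Mir542 did. All 3 contain Mir351, so they are not separate results, and the intervals cover counting error only. At any fold 57.3% of all tested genes passed between these libraries, and how often other pairs of hairpins part in this way was not tested. Against Mir450b, which was also lower in pup 3, Mir351 had 19.7 times the counts in pup 1 (16.1 to 24.4) and 18.2 times in pup 3 (15.0 to 22.3), with overlapping intervals. With 1 library from each pup, a difference between animals and one between library preparations cannot be told apart.

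**Figure D2:**
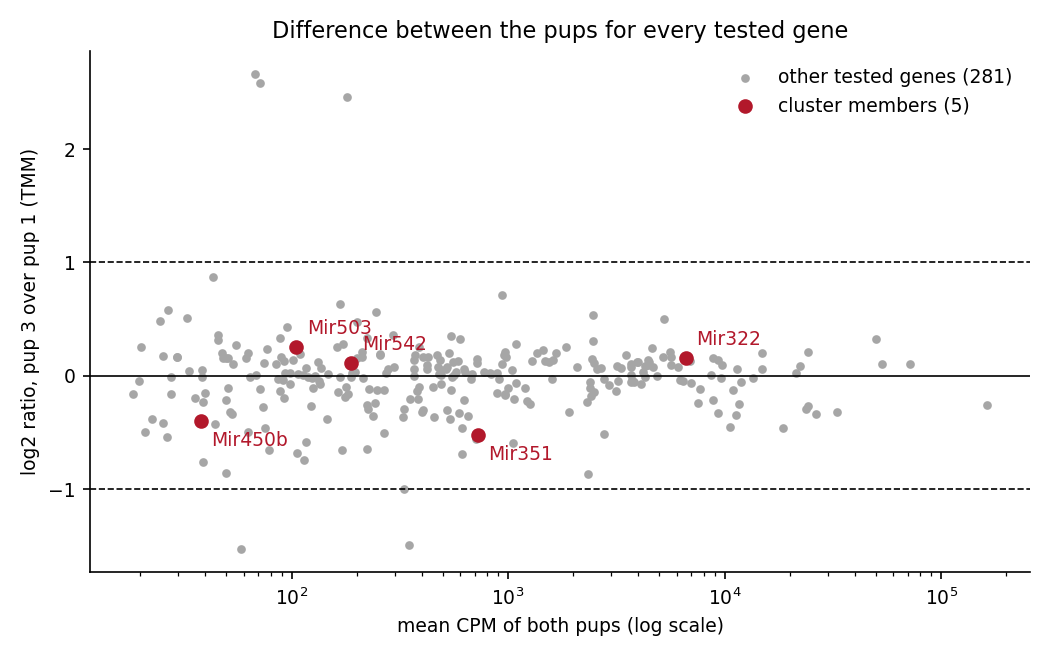
TMM-scaled log2 ratio, pup 3 over pup 1, against the mean CPM of both pups on a log axis, for all 286 tested genes, with the 5 tested members in red and dashed lines at 2-fold. Mir322 and Mir503 lie above 0, Mir351 lies at -0.52, and no member reaches either dashed line.

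Some hairpins that mark other cells of the tissue also differed between the pups, where 57.3% of all tested genes passed at any fold. Mir126a, the endothelial microRNA, had 36188 and 30095 CPM (log2 ratio -0.32), lower in pup 3 as Mir351 was. The 3 erythroid hairpins did not move together. Mir451a had 86.4 and 31.0 CPM, Mir486 had 18.0 and 14.1 CPM, and Mir144, higher in pup 3, had 20.1 and 29.1 CPM, so the fall of their sum from 125 to 74.2 CPM rests on Mir451a. Mir144 did not pass (adjusted p = 0.0684 by Fisher's exact test), and Mir486 had too few counts to be tested. The part of these cells in the Mir351 result was not tested. The 7 mural and mesenchymal hairpins, led by Mir143 with 6990 ± 59.9 CPM, Mir214 with 225 ± 27.2 CPM and Mir145a with 179 ± 3.91 CPM, summed to 7506 and 7374 CPM. Of these 7, Mir145b was at 0 in both pups.

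Striated muscle, a tissue in which miR-322 and miR-503 are well studied, gave low counts. Its 7 counted hairpins summed to 42.4 and 50.7 CPM, of which Mir206 supplied 19.7 ± 0.0242 CPM, Mir208b 14.0 ± 4.08 CPM and Mir499 12.1 ± 1.43 CPM. Mir1a-1, Mir133a-1 and Mir133a-2 were at 0, but their families have several loci, so reads of theirs can be lost to several-place mapping. The neuronal list had 6 of 6 hairpins detected and summed to 43790 and 48804 CPM, led by Mir137 with 24297 ± 3132 CPM, Mir153 with 9302 ± 849 CPM and Mir128-1 with 7698 ± 263 CPM.

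Markers of choroid plexus and ciliated cells summed to 3943 and 4310 CPM, with Mir449a at 1842 ± 277 CPM, Mir204 at 1264 ± 121 CPM and Mir34c at 979 ± 102 CPM. Those of oligodendrocytes summed to 1656 and 1549 CPM, Mir338 supplying 770 ± 30.5 CPM, Mir219a-2 650 ± 96.6 CPM and Mir219a-1 183 ± 9.88 CPM. In whole tissue, fewer cells of a type and less RNA per cell cannot be told apart.

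Set beside the other hairpins with its 5p seed, Mir322 was the most counted of them. Mir15a, in an intronic cluster with Mir16-1, had 3203 ± 3.94 CPM, Mir16-1 had 2381 ± 2.63 CPM, Mir15b 1290 ± 113 CPM, Mir195a 887 ± 43.0 CPM and Mir16-2 479.9 ± 16.1 CPM. The highest of these, Mir15a, lay below Mir322 in both pups. Mir322 held 42.9% of the counts on hairpins with this seed in pup 1 (42.4 to 43.4) and 46.1% in pup 3 (45.7 to 46.6).

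That share is uncertain because of the way of counting. Mature miR-16-5p, uAGCAGCAcguaaauauuggcg, has an exact copy in 2 annotated hairpins, Mir16-1 and Mir16-2, so its reads map to several places and are missing from this total, whereas miR-322-5p has 1. Mir497, whose miR-497a-5p has the same seed, has no row of its own in the tables and adds nothing to this total. Counts missing from relatives raise the share of Mir322 by an unknown amount. Strands without this seed can also be in the number of each hairpin, so the share is one of hairpins. How far, and in which direction, it departs from a share of the seed is unknown. Mir195b had 1 count in pup 3 and 0 in pup 1, and Mir6342, Mir6353 and Mir6419 had 0 in both.

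Mir351 was the least counted of the 4 hairpins with its seed that had any count. Mir6367 and Mir6394, which also carry that seed, had 0 counts in both pups. Mir125a had 8866 ± 709 CPM, Mir125b-1 had 3136 ± 126 CPM and Mir125b-2 had 2570 ± 136 CPM, all above Mir351 in both pups. Mir351 held 5.31% of the counts on hairpins with this seed in pup 1 (5.08 to 5.54) and 4.15% in pup 3 (3.97 to 4.34). Since miR-125b-5p, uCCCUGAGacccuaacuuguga, has a copy in 2 hairpins, this share too is uncertain. Mir125a was lower in pup 3 as Mir351 was, with a log2 ratio of -0.21, and Mir125b-2 was at 0.06.

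**Figure D3:**
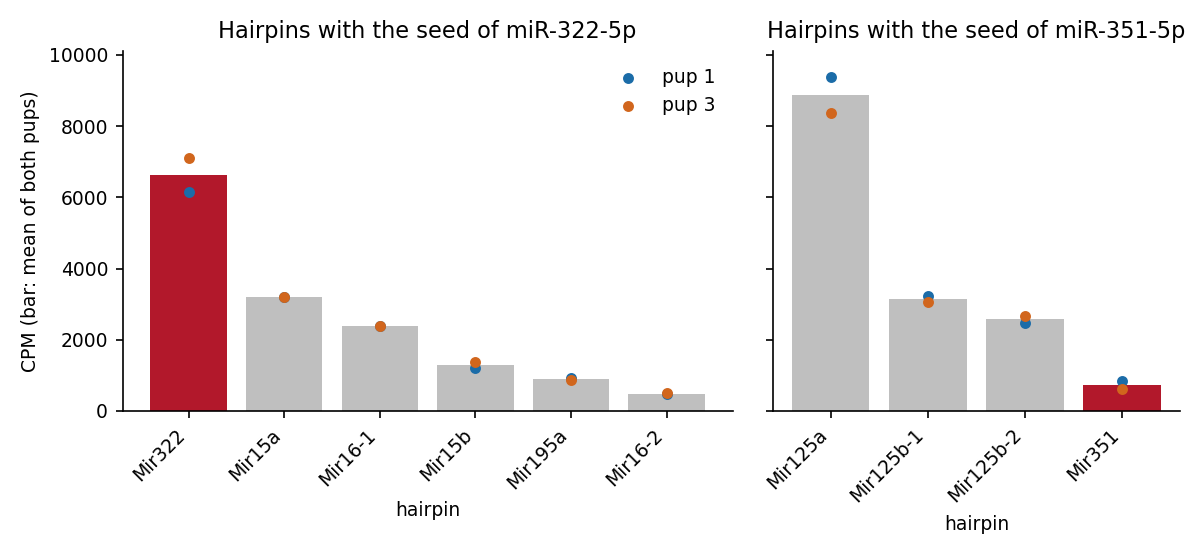
Mean CPM of the hairpins with at least 1 CPM whose mature strand has the seed of miR-322-5p (left) or of miR-351-5p (right); bars are means of both pups, points are the pups, and cluster members are red. Mir322, at 6629 CPM, is the highest bar of the left group and Mir351, at 727 CPM, the lowest of the right group; hairpins with 0 counts are not drawn.

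On the X chromosome, 41 of 120 counted hairpins were detected, and none was above Mir322. The next were Mir652 with 4301 ± 90.3 CPM, Mir98 with 3705 ± 4.82 CPM and Mir361 with 3494 ± 401 CPM, and no range over the pups of these 3 reached that of Mir322. The cluster held 23.1% of X-linked counts in pup 1 (22.8 to 23.4) and 23.9% in pup 3 (23.6 to 24.1). Reads of X-linked hairpins with relatives at other loci can be missing, so this order and this share are those of counted reads only. Mir351 had rank 10 among the X-linked hairpins, and its range over the pups overlapped that of Mir325, the next below, at 720 ± 58.0 CPM.

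**Figure D4:**
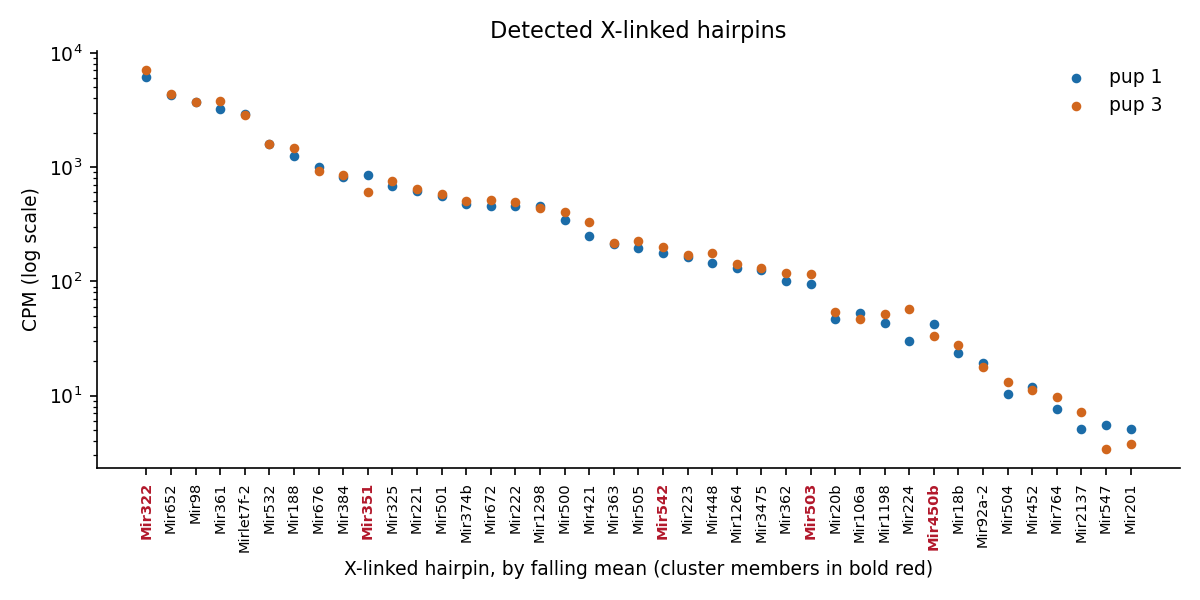
CPM on a log axis of the 41 detected X-linked hairpins, ordered by their mean over the pups, with both pups as points and the names of cluster members in bold red. Mir322 heads the order, and Mir351, Mir542, Mir503 and Mir450b are spread along it.

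Among the other X-linked clusters the nearest, that of Mir106a to Mir363, lies 305429 bases away on the same strand and summed to 361 ± 4.21 CPM, with Mir363 at 213 ± 3.31, Mir20b at 50.8 ± 5.22, Mir106a at 49.8 ± 4.02, Mir18b at 25.5 ± 2.83, Mir92a-2 at 18.5 ± 1.00 and Mir19b-2 at 2.77 ± 2.14 CPM. The cluster in Clcn5 summed to 4003 ± 256 CPM, with Mir532 at 1596 ± 15.8, Mir188 at 1360 ± 168, Mir501 at 566 ± 15.5, Mir500 at 373 ± 43.2 and Mir362 at 109 ± 13.1 CPM. Mir221 and Mir222, which are cut from 1 locus and known for promoting proliferation, had 629 ± 25.5 and 474 ± 30.3 CPM. Mir92a-2 and Mir19b-2 have relatives at another locus, Mir92-1 and Mir19b-1, so reads of theirs can be lost to several-place mapping. The sum for the cluster of Mir106a to Mir363 can therefore be too low. No spread among members was tested between clusters.

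Only the level could be used to find genes like the members, since 2 samples of 1 group give no pattern across conditions. For each detected member the genes next above and next below it in mean CPM over the 2 pups were taken, and likeness was the member's mean log2(CPM + 1) less that of the gene. By mean CPM, Mir322 lay between Mir181d at 6904 ± 613 CPM and Mir598 at 6398 ± 19.0 CPM, with differences of -0.06 and 0.05. Mir351 lay between Mir338 and Mir325, with differences of -0.10 and -0.0038, and Mir542 between Mir190a at 189 ± 6.80 CPM and Mir217 at 188 ± 3.90 CPM. Mir503 lay between Mir129-1 at 106.4 ± 32.3 CPM and Mir7689 at 102 ± 9.40 CPM, with differences of 0.01 and 0.05, and Mir450b between Mir582 at 38.6 ± 0.735 CPM and Mir574 at 35.9 ± 2.50 CPM. On the log scale Mir351 was thus below both of its neighbours and Mir503 above both. Each member's range over the pups overlapped that of the neighbour on at least 1 side.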

How the data were processed

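The values are raw counts per gene as the authors deposited them, in 1 table per library with columns for either strand, own strand and opposite strand, a meaning read from the values. Per the file headers and descriptions deposited with them, they derive from alignments to mm10 with GENCODE M4. Aligner and counter: not given in the sources used here. The 4 rows that name no gene held 57.2% and 56.7% of reads and stayed out of library sizes and tests, and several-place reads alone were 38.7% and 39.8%. Own-strand counts were scaled to CPM.

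Gene identifiers were matched without versions to GENCODE M21, which gave 1894 of them a symbol. Mir450a-1 and Mir450a-2 are named Mir450-1 and Mir450-2 there. Exact copies of mature strands were searched in annotated transcripts only, with no search of the whole genome.

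TMM factors came from edgeR 4.0.16 with a prior count of 0.5. Fisher's exact test and intervals used scipy 1.17.1, with Benjamini-Hochberg adjustment over 286 genes, a threshold of 0.05 and 2-fold, and the test was first tried on simulated counts. Alternatives used DESeq2 1.42.0 size factors, other filters, totals, folds, either-strand counts and each pup alone. Genes named besides the members are those of the listed families, clusters and markers, the nearest genes in level, and X-linked genes next to the members in level, the last chosen after their values were seen. The members and lists were chosen with earlier results of these data known.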

Additional observations from a re-analysis of the deposited data

Results flagged for a closer look

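In data outside the own-strand counts, 1 hairpin of the miR-15 and miR-16 list stood out. Mir497b had 1686 opposite-strand counts in pup 1 and 2368 in pup 3, or 721 and 741 CPM (731 ± 13.9, n = 2), against 1 and 0 own-strand counts and a limit of 1.28 CPM for a count of 0 in pup 1. On the other strand of chromosome 11 it overlaps Mir497, from 70234717 to 70234800, whose miR-497a-5p has the seed of miR-322-5p and which has no row in the tables. These opposite-strand counts thus lie on the strand of Mir497 and not on that of Mir497b. Whether the reads fall within Mir497 was not tested.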

How the results depend on the processing

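The order of counted levels was the same in 7 of 7 places per 100 bases of hairpin and in each pup alone, with the miR-450a hairpins undercounted. These places include the miR-450a pair, whose own order was not resolved. Either-strand counts could not change the order, since no member had an opposite-strand count. The summed cluster had 7695 ± 537 CPM, from 7315 to 8074 CPM with a pup left out. It had 9187 CPM with the total taken without the most abundant gene and 3312 CPM over all reads in the files, changes that follow from the smaller and the larger total. The mean count ratio of Mir322 to Mir351 was 9.47 and ran from 7.28 to 11.7 with a pup left out. In place of 5 genes past the threshold at 2-fold, 10 passed with a mean count of at least 10 or with no filter, 19 at 1.5-fold and 164 at any fold. No member passed at 2-fold under these filters and scalings or at 1.5-fold. At any fold 3 did, or 2 with no filter. The test uses unscaled totals, so its p-values could not change with the scaling. No result reversed. Mir503 had an adjusted p = 0.0552 by Fisher's exact test with no filter, where more genes were tested. Detected members were 5, or 7 with a minimum of 1 count. No paired analysis was possible because there is 1 group. With 2 libraries, spread between animals rests on 1 difference per gene, and at 7 to 12 counts the miR-450a hairpins could not be ordered.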
